A study of Anolis carolinensis with 142 samples.

Results

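The testes and ovaries of green anoles (Anolis carolinensis, a small day-active lizard) were compared between night and day. The 16 libraries compared were 4 of testes and 4 of ovary at Midnight and the same numbers at Midday, chosen by their organ and treatment labels out of 142 libraries in all. The animals were wild-type adults caught in the breeding season from a city campus, and each had been assigned at random to a single treatment. Midday animals were dissected around noon, and Midnight animals at night in darkness with a red torch. A further treatment, artificial light at night (ALAN), enters below only where it is named. Each library came from a separate animal, so the spread between libraries is the spread between animals. The animals' reproductive stage within the season is not given in the sources used here.

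Most vertebrate tissues hold a molecular clock, a loop of activators that switch on their own repressors over each day, and the clock sets the daily rise and fall of many other transcripts. Brain and eye receive light in lizards, and the pineal gland, a source of nightly melatonin, was part of the brain samples here. Gonads carry germ cells through divisions and maturation that run over many days, beside the somatic cells that make sex steroids. The deposited table gives Ensembl gene IDs without names and they could not be paired with names, so genes are given by ID and no function is attached to them. In bulk tissue, fewer cells of a type and less RNA per cell cannot be told apart.

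Total counts ran from 24041391 to 25845031 in the 8 testes libraries and from 29019489 to 30952365 in the 8 ovary libraries. Across the series, libraries fell into classes by the share of even numbers among counts from 1 to 20, and all 16 gonad libraries were of a single class, with shares of 58.8% to 63.1%. Genes enriched in an organ were taken from the ALAN libraries, as those with at least 5 CPM (counts scaled to the same total in every library) and 8-fold above every other tissue. The 1035 testes-enriched genes took 33.1% ± 1.97 of the counts in testes at Midday and 32.8% ± 0.416 at Midnight (SD, n = 4 each). The 401 ovary-enriched genes took 9.32% ± 0.140 of the counts in ovary at Midday and 9.32% ± 0.351 at Midnight. Neither share differed between the times beyond the spread between animals (two-sided exact permutation test, p = 0.771 in testes and p = 1 in ovary). Without Testes Midday 2, the library with the highest liver-enriched share, the testes share at Midnight minus Midday was -1.29 percentage points (exact p = 0.0286, the smallest that 3 against 4 allow).

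Few genes in the gonads passed the main test for a difference between Midnight and Midday. In testes, 0 of 16709 genes tested had an adjusted p under 0.05, the threshold for a call (edgeR's quasi-likelihood test with Benjamini-Hochberg adjustment), and the smallest adjusted p was 0.125. In ovary, 4 of 15733 genes were called, 0.0254% of those tested, and all 4 were lower at Midnight. Without adjustment, 846 testes genes (5.06%) and 929 ovary genes (5.90%) had a p under 0.05. In testes 440 of the 846 were higher and 406 lower at Midnight, and in ovary 497 of the 929 were higher and 432 lower. DESeq2 called 46 genes in testes and 116 in ovary. Leaving out Testes Midday 2 moved the testes count at an unadjusted p under 0.05 from 846 to 1557 and the calls from 0 to 1, and leaving out any 1 ovary library left 1 to 3 calls. With the 4 ALAN ovary libraries in the fit, 3 of them of the other counting class, 0 ovary genes were called, while the log2 changes of the 4 genes stayed at -1.71, -1.67, -1.66 and -1.56 against -1.70, -1.66, -1.65 and -1.55 without those libraries.

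The same test with 4 animals against 4 of the same sex gave more calls in most other organs. In males, brain held 129 calls, eye 55 and liver 0, and in females brain held 14, eye 15 and liver 15. These are 0.8%, 0.351% and 0% of genes tested in males and 0.0873%, 0.0965% and 0.11% in females. Male liver, with 0 calls, still had an unadjusted p under 0.05 in 11.9% of its genes and a smallest adjusted p of 0.0665. The other shares at that level were 12.9% in male brain, 17.4% in male eye, 6.18% in female brain, 6.39% in female eye and 12.0% in female liver. In these full fits gonads had the lowest shares of the 8 sets, with female brain and female eye close to ovary. That order rested on single animals. Without Testes Midday 2 the testes share was 9.21%, and without Ovary Midday 1 the ovary share was 8.06%. Both are above the full fits of female brain and female eye. By DESeq2, ovary had more calls than female brain and as many as female eye. The shares were not tested against each other. In each eye group 3 or 4 of the 4 libraries were of the other counting class, and the part of that in the eye values was not tested.

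**Figure D1:**
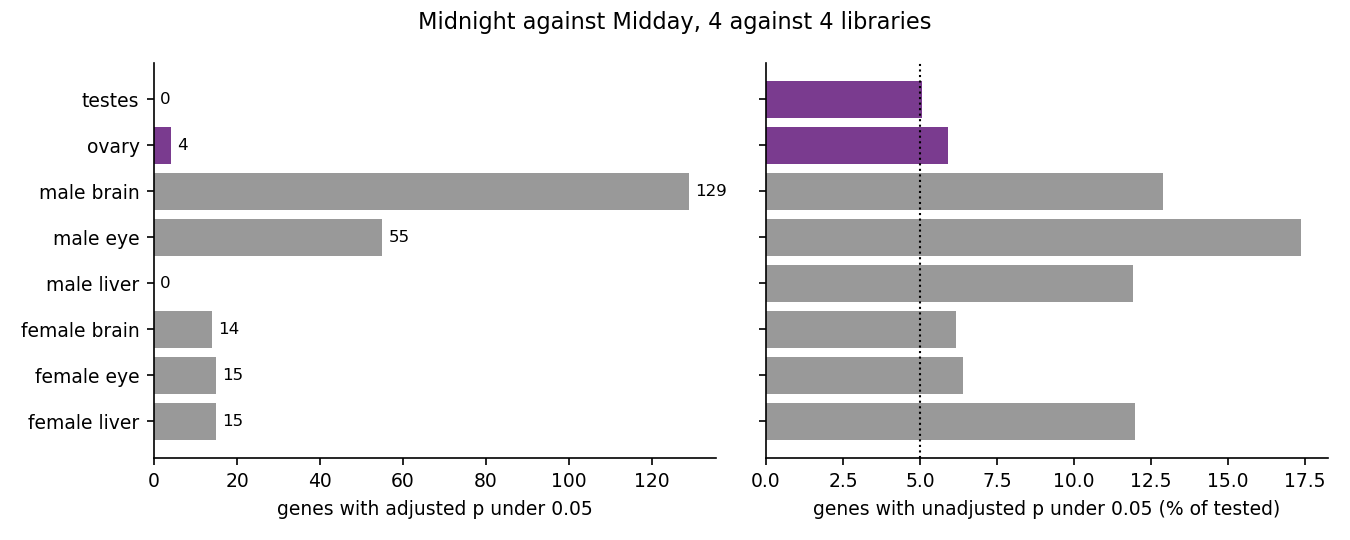
Genes that differed between Midnight and Midday in fits of 4 against 4 libraries, as the number with an adjusted p under 0.05 (left) and the percent of tested genes with an unadjusted p under 0.05 (right, dotted line at 5). Testes and ovary (purple) stand at 0 and 4 calls, and at 5.06% and 5.90%.

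The precision of the gonad fits was near that of eye. The median standard error of a log2 change was 0.20 in testes and 0.19 in ovary, against 0.19 in both eye fits, 0.12 and 0.16 in male and female brain, and 0.31 and 0.28 in male and female liver. The 95% interval of the log2 change lay within 1 either way in 70.0% of testes genes and 71.6% of ovary genes. For the remaining genes a change of more than 2-fold in 1 direction or the other was not bounded. Within a log2 change of 2, the intervals covered 91.3% of testes genes and 91.6% of ovary genes.

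Distances between whole libraries did not separate the times in either gonad at the threshold. The distance used was the root mean square difference of log2 CPM over the genes tested. In testes, libraries of different times were 0.831 apart on average and libraries of the same time 0.826 apart, a difference of 0.0052 (two-sided exact permutation test, p = 0.971). In ovary the averages were 0.775 and 0.749, a difference of 0.0252 (exact p = 0.0857). The smallest p that 70 arrangements of 4 against 4 allow is 0.0286, and male brain (0.0400) and male eye (0.0860) reached it. Adjusted over the 8 sets, no p was under 0.114. Leaving out Testes Midday 2 raised the testes difference to 0.0696.

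The 4 genes called in ovary had similar sizes of change, and their testes values lay on the same side. They were named because they are all the calls, after their values were seen. With single ovary libraries left out, ENSACAG00000007370 stayed called in all 8 fits. ENSACAG00000028720 lost its call in 6 of them, ENSACAG00000017860 in 7 and ENSACAG00000012339 in all 8. The first, ENSACAG00000007370, spans 9 merged exons on the plus strand of chromosome 2, bases 95689784 to 95702711 as the deposited table gives them. Its level in the ovary libraries was 114, 130, 105 and 97.6 CPM at Midday and 34.8, 37.1, 35.9 and 29.4 CPM at Midnight. The groups did not overlap, and the highest Midnight ovary was at 37.1 CPM against 97.6 CPM in the lowest Midday ovary. The log2 change was -1.70 ± 0.12 (SE; edgeR adjusted p = 0.00159). In testes the levels of ENSACAG00000007370 were 130, 23.0, 45.0 and 103 CPM at Midday and 51.5, 7.94, 39.9 and 31.1 CPM at Midnight. The testes groups overlapped, with Midday animals 2 and 3 under the highest Midnight animal, and the log2 change was -1.21 ± 0.70 (edgeR adjusted p = 0.999).

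ENSACAG00000028720 and ENSACAG00000017860 lie on the minus strand of chromosome 6, at bases 70535701 to 70630953 and 70411381 to 70614367. Their spans overlap, but none of their exon bases are shared with each other or with any other ID in the table. ENSACAG00000028720 was at 122, 130, 106 and 84.5 CPM in Midday ovaries and at 38.8, 37.9, 35.8 and 27.6 CPM in Midnight ovaries. Its log2 change in ovary was -1.66 ± 0.16 (edgeR adjusted p = 0.0154). ENSACAG00000017860 was at 78.8, 93.3, 90.6 and 62.1 CPM in Midday ovaries and at 29.3, 27.8, 33.5 and 20.6 CPM in Midnight ovaries. Its log2 change in ovary was -1.55 ± 0.18 (edgeR adjusted p = 0.0340). For both genes all Midnight ovaries were below all Midday ovaries, and replicate 4 was the lowest of each group.

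In testes both genes spread more widely between animals. ENSACAG00000028720 was at 122, 31.6, 63.5 and 126 CPM at Midday and at 47.7, 9.44, 54.4 and 33.8 CPM at Midnight. ENSACAG00000017860 was at 82.8, 28.2, 41.9 and 69.7 CPM at Midday and at 29.2, 10.6, 35.6 and 21.8 CPM at Midnight. Groups overlapped for both, and the log2 changes were -1.24 ± 0.62 and -1.19 ± 0.45 (edgeR adjusted p = 0.999 and 0.982). Testes Midday 2 was the lowest Midday animal, and Testes Midnight 2 the lowest Midnight animal, for ENSACAG00000007370, ENSACAG00000028720 and ENSACAG00000017860 alike.

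The remaining call was ENSACAG00000012339, with 7 merged exons at bases 444021 to 451395 on the plus strand of a scaffold outside the numbered chromosomes. It was at 13.2, 13.3, 11.7 and 15.6 CPM in Midday ovaries and at 4.08, 3.61, 5.17 and 4.22 CPM in Midnight ovaries. Its log2 change in ovary was -1.65 ± 0.18 (edgeR adjusted p = 0.0340). In testes it was at 15.5, 14.0, 4.69 and 18.6 CPM at Midday and at 7.75, 5.53, 4.83 and 3.47 CPM at Midnight. There the log2 change was -1.29 ± 0.41 (edgeR adjusted p = 0.936), and Midday animal 3 lay within the Midnight range. With the share of counts in liver-enriched genes as a covariate, 3 of the 4 ovary calls remained and ENSACAG00000012339 had an adjusted p of 0.0629.

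**Figure D2:**
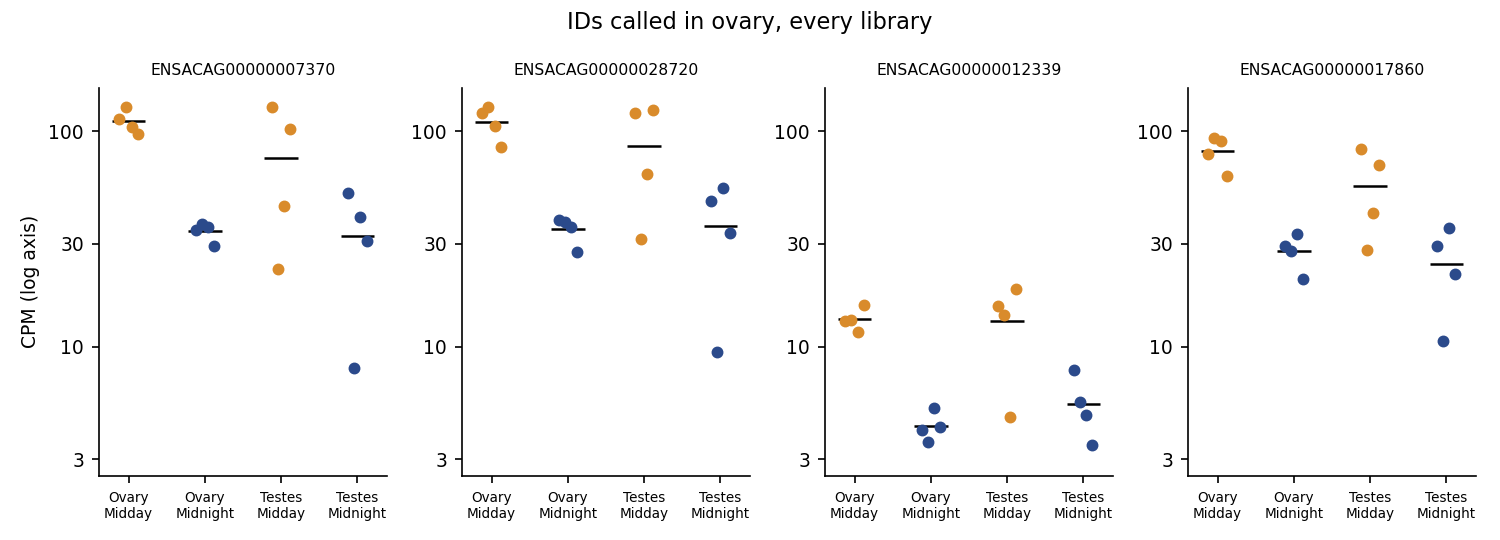
Level in CPM (log axis) of the 4 genes called in ovary, in every ovary and testes library at Midday (orange) and Midnight (blue), with horizontal lines at group means. In ovary the groups do not overlap in any of the 4 panels, while in testes they overlap in all 4.

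The night changes of these 4 genes were not shown to differ between the organs. The interaction of organ and time gave testes-minus-ovary differences of 0.46 for ENSACAG00000007370, 0.38 for ENSACAG00000028720, 0.33 for ENSACAG00000012339 and 0.32 for ENSACAG00000017860. Their 95% intervals were wide, from -1.03 to 1.94 for ENSACAG00000007370, and the adjusted p-values were 0.957 to 0.966 (edgeR). Over all 17896 genes tested for that interaction, 0 were called (0%), the smallest adjusted p was 0.0774, and 1242 had an unadjusted p under 0.05. DESeq2 called 54.

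In other organs, 3 of the 4 ovary calls were also lower at Midnight in the female brain. Ovary and female brain came from the same set of animals, so these are not separate animals. The log2 changes there were -1.46 ± 0.18 for ENSACAG00000007370, -1.08 ± 0.11 for ENSACAG00000028720 and -1.35 ± 0.13 for ENSACAG00000017860 (edgeR adjusted p = 0.0269, 0.00688 and 0.00362). ENSACAG00000012339 had a log2 change of 0.09 ± 0.21 in female brain (edgeR adjusted p = 0.939), where its level was far higher than in the gonads. Over both sexes, the brain held 1250 ± 190 CPM of it at Midday and 1169 ± 301 CPM at Midnight (SD, n = 8 each). In female liver all 4 genes had positive log2 changes, from 0.72 to 1.64, and none passed the test (smallest edgeR adjusted p = 0.260). In female eye the 3 genes called in brain were at -0.97, -1.64 and -1.56 in the same order, and none was called. In male brain they were at -1.20, -0.72 and -1.16 and in male eye at -0.33, 0.07 and -0.07, again with none called, and in male liver their log2 changes were 0.44, 0.31 and 0.22.

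A gene picked by its p-values in both gonads lay on the same chromosome as one of the ovary calls, so its low p-values are how it was chosen. Among genes tested in both organs at 1 CPM or more in each, ENSACAG00000029684 had the smallest value of the larger of its 2 unadjusted p-values on the lower side. It lies on the plus strand of chromosome 2, bases 95401878 to 95457122, and 232661 bases separate it from ENSACAG00000007370. In testes ENSACAG00000029684 was at 39.4, 52.4, 18.8 and 61.1 CPM at Midday and at 16.2, 18.0, 18.2 and 16.5 CPM at Midnight. In ovary it was at 52.1, 39.6, 58.9 and 31.1 CPM at Midday and at 15.9, 12.4, 19.3 and 8.89 CPM at Midnight. All Midnight animals were below all Midday animals in both organs, as in 1.47% of all testes genes and 1.73% of all ovary genes. Since the gene was picked by its p-values in these libraries, this is a description. The gap in testes was narrow, at 18.2 CPM against 18.8 CPM. The log2 changes were -1.32 ± 0.31 in testes and -1.68 ± 0.27 in ovary, neither called by edgeR (adjusted p = 0.936 and 0.231), while DESeq2 called it in both (adjusted p = 0.00849 and 1.12e-06). In brain its log2 change was -1.25 ± 0.15 over both sexes (edgeR adjusted p = 0.000204). Over both sexes it was -0.77 ± 0.56 in eye and 0.61 ± 0.49 in liver, neither called (edgeR adjusted p = 0.448 and 0.535).

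On the higher side the same rule gave ENSACAG00000017727, a gene at 485 to 645 CPM in testes and 0.570 to 4.74 CPM in ovary. Its testes levels were 592, 485, 607 and 493 CPM at Midday and 645, 619, 632 and 635 CPM at Midnight. Its ovary levels were 1.18, 0.788, 0.570 and 1.23 CPM at Midday and 1.37, 4.74, 1.84 and 2.40 CPM at Midnight. Midnight was above Midday without overlap in both organs, as in 1.46% of all testes genes and 1.59% of all ovary genes. This gene too was picked by its p-values in these libraries, so the lack of overlap is a description. The log2 changes were 0.22 ± 0.08 in testes and 1.46 ± 0.45 in ovary, and neither was called (edgeR adjusted p = 0.982 and 0.775).

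Across all 14802 genes tested in both gonads, the changes in testes and ovary had the same sign in 50.4%. Pearson's r of the log2 changes across genes was 0.14 and Spearman's rho 0.047, given as a description because genes are not independent. An unadjusted p under 0.05 occurred in both organs for 60 genes. They were 8.11% of the 740 such genes in testes, while 5.9% of all genes tested in both had such a p in ovary. They were 6.86% of the 874 in ovary, while 5% of all had such a p in testes. Of the 60, 28 were lower in both, 12 higher in both, and the others of opposite sign.

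Genes lower at Midnight in brain had lower levels in the gonads more often than genes at large. In brain, the 16 Midday and Midnight libraries of both sexes gave 120 genes lower at Midnight (0.75% of those tested) and 34 higher (0.212%), together 0.962%. Of the 120, 113 were tested in testes and 12 of them were lower there at an unadjusted p under 0.05, which is 10.6% against 2.43% of all testes genes. In ovary 114 were tested and 26 were lower at that level, which is 22.8% against 2.75% of all ovary genes, and in 16 of the 114 all Midnight ovaries were below all Midday ovaries, against 1.73% of all genes. At an adjusted p under 0.05, 2 were called in ovary and 0 in testes. The 2 are ENSACAG00000028720 and ENSACAG00000017860, already described, and the brain list also holds ENSACAG00000029684. Of the 111 tested in both gonads, 6 were lower in both. Brain and gonads came from the same set of animals, so these are not separate animals.

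Part of that ovary count lay in genes whose level was far higher in liver. Of the 23 brain genes at least 8 times higher in liver than in ovary, 14 were lower in ovary at an unadjusted p under 0.05, with a median log2 change of -1.95. Of the other 91, 12 were lower (13.2% against 2.75%) and 2 higher, 9 had no overlap between groups, and the median log2 change was -0.003. In testes the 25 genes at least 8 times higher in liver gave 0 of the 12, and of the other 88, 12 were lower (13.6% against 2.43%), 3 higher and 4 without overlap on the lower side, against 1.47% of all testes genes. Averaged over the 91 genes, the ovary libraries were at 4.08, 4.04, 4.09 and 4.06 log2 CPM at Midday and 3.95, 3.89, 3.93 and 3.84 log2 CPM at Midnight. The Midday and Midnight ovaries did not overlap, with a difference of means of -0.16. Of the 91 genes 44 had a positive and 47 a negative log2 change in ovary, so the lower mean was not shared across the list. Over the 88 genes the testes libraries were at 4.23, 4.25, 4.10 and 4.20 log2 CPM at Midday and 4.13, 4.12, 4.12 and 4.08 log2 CPM at Midnight. The testes groups overlapped through Midday animal 3, and the difference of means was -0.08. Leaving out single libraries left 10 to 12 lower genes among the 91 or 92 tested in ovary, against 2.32% to 4.56% of all ovary genes. The 4.56% was without Ovary Midday 1, where 12 of 92 were lower. In testes 7 to 11 of the 88 were lower, against 1.87% to 2.77% of all testes genes. With the ALAN libraries in the fit 6 of 92 were lower in ovary, against 1.45% of all genes there. In testes 6 of 88 were, against 2.30%.

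**Figure D3:**
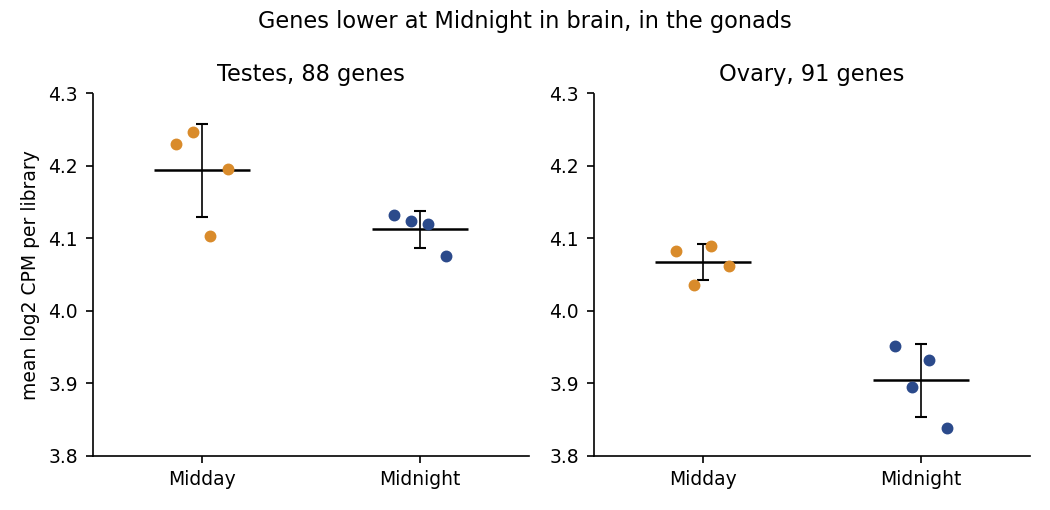
Mean log2 CPM per library of the genes lower at Midnight in brain and less than 8 times higher in liver than in the gonad, in testes (88 genes) and ovary (91 genes), with means and SD over 4 animals. All Midnight ovaries (3.84 to 3.95) are below all Midday ovaries (4.04 to 4.09), and the testes groups overlap.

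The 432 ovary genes and 406 testes genes lower at an unadjusted p under 0.05 were also looked up in the other organs. Their overlap with the brain calls is the 26 and 12 genes just given, from 378 and 343 tested there. Of the 432 ovary genes, 22 of 380 tested in eye were called lower there (5.79% against 1.02%), and in liver 9 of 350 (2.57% against 1.55%). Of the 406 testes genes, 5 of 337 were called lower in eye (1.48%) and 7 of 273 in liver (2.56%). Of the 28 genes lower in both gonads, 6 were called lower in brain (21.4% against 0.75%), and they are the 6 brain genes lower in both gonads given above. In eye 1 of the 28 was called lower (3.57% against 1.02%), and in liver 0 of the 25 tested, against 1.55%. Of the genes higher in the gonads at that level, 0 of 397 ovary genes and 3 of 377 testes genes (0.796%) were called higher in brain, against 0.212% of all brain genes. Opposite directions occurred as well. Of the genes lower in the gonads, 0 of 378 ovary genes and 3 of 343 testes genes (0.875%) were called higher in brain. Of those higher in the gonads, 2 of 397 ovary genes (0.504%) and 3 of 377 testes genes (0.796%) were called lower in brain, against 0.75%.

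Genes that changed with the time of day in at least 2 of brain, eye and liver gave 0 calls in either gonad. There were 16 such genes higher at Midnight and 48 lower, from fits of 16 libraries in each organ that called 0.962%, 1.93% and 2.46% of genes in brain, eye and liver. In testes, 16 of the night-high genes were tested and 0 were called, with 3 higher (18.8%) and 2 lower (12.5%) at an unadjusted p under 0.05, against 2.63% and 2.43% of all genes. Of the 46 day-high genes tested in testes, 2 were lower and 1 higher at that level, and the median log2 change was -0.04. Positive log2 changes were held by 9 of the 16 night-high and 18 of the 46 day-high genes in testes, against 50.6% of all testes genes. In ovary, 15 night-high genes gave none at that level in either direction, and 12 of the 15 had a positive log2 change against 53.1% of all genes. Of the 48 day-high genes, 12 were lower in ovary at an unadjusted p under 0.05 (25.0% against 2.75%), all of them among the 26 brain genes above, 0 were called, 31 had a negative log2 change against 46.9% of all genes, and the median log2 change was -0.07.

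The ovary's share of that pattern again lay mostly in genes of high liver level. Of the 13 day-high genes at least 8 times higher in liver than in ovary, 9 were lower at an unadjusted p under 0.05, with a median log2 change of -2.84, and of the other 35, 3 were. A day-night score was taken in each library by subtracting the average log2 CPM of day-high genes from that of night-high genes. It was 0.31 ± 0.44 in Midday ovaries and 0.80 ± 0.13 in Midnight ovaries, without overlap. Without the genes of high liver level it was 0.25 ± 0.07 and 0.31 ± 0.17, and the groups overlapped. In testes the score was -1.57 ± 0.69 at Midday and -1.73 ± 0.29 at Midnight, and without those genes -1.02 ± 0.09 and -1.07 ± 0.14. The sign of the testes difference turned with the list, from -0.17 here to 0.97 over the genes called in all 3 organs, of which 1 was night-high and 8 day-high, and it was 0.12 without Testes Midday 4. In brain, eye and liver, where the genes were chosen, Midnight minus Midday was 1.23 to 2.17 in each sex, and the choice of genes fixes that direction.

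Liver-enriched genes took a share of counts that varied between animals and moved with these values. The 351 liver-enriched genes took 0.930%, 6.18%, 0.968% and 0.236% of counts in Midday testes and 3.37%, 0.743%, 1.18% and 3.85% in Midnight testes. In ovary they took 0.347%, 0.261%, 0.236% and 1.51% at Midday and 0.248%, 0.219%, 0.239% and 0.694% at Midnight. The 3 testes libraries of highest share also had the highest means of the day-high genes, at 5.83, 5.55 and 5.31 log2 CPM, and Testes Midday 4, the lowest in share, had the lowest mean, 4.10 log2 CPM. In ovary the highest share and the highest mean, 5.29 log2 CPM, were both in Midday 4. Ovary Midnight 4 had the next highest share but a mean of 4.17 log2 CPM, among the lowest. The day-high genes themselves included 16 in testes and 13 in ovary that were at least 8 times higher in liver than in that gonad. Share and mean may thus rest partly on the same genes, so their agreement is a description. A link of the share with the other day-high genes was not tested library by library. With the liver-enriched share as a covariate, 5 of the 48 day-high genes were lower in ovary at an unadjusted p under 0.05 in place of 12, and without Ovary Midday 4 there were 7. With the covariate 19 of 114 brain genes were lower in ovary in place of 26, and without Ovary Midday 4, 19 of 115. Of those less than 8 times higher in liver, 12 of 91 and 10 of 92 were lower in these fits. The shares of all ovary genes lower at that level were 2.85% and 2.32%. Without the 3 testes libraries over 3%, edgeR called 0 testes genes and 1169 had an unadjusted p under 0.05. Of the 88 brain genes in testes 6 were then lower and 5 higher at that level, in place of 12 and 3. The shares of all testes genes in that fit were 2.79% and 4.07%. With the covariate 7 of the 88 were lower and 6 higher, against 2.67% and 3.02%. Of all 113 brain genes tested in testes, 6 were lower and 6 higher without those libraries, and 8 and 6 with the covariate.

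**Figure D4:**
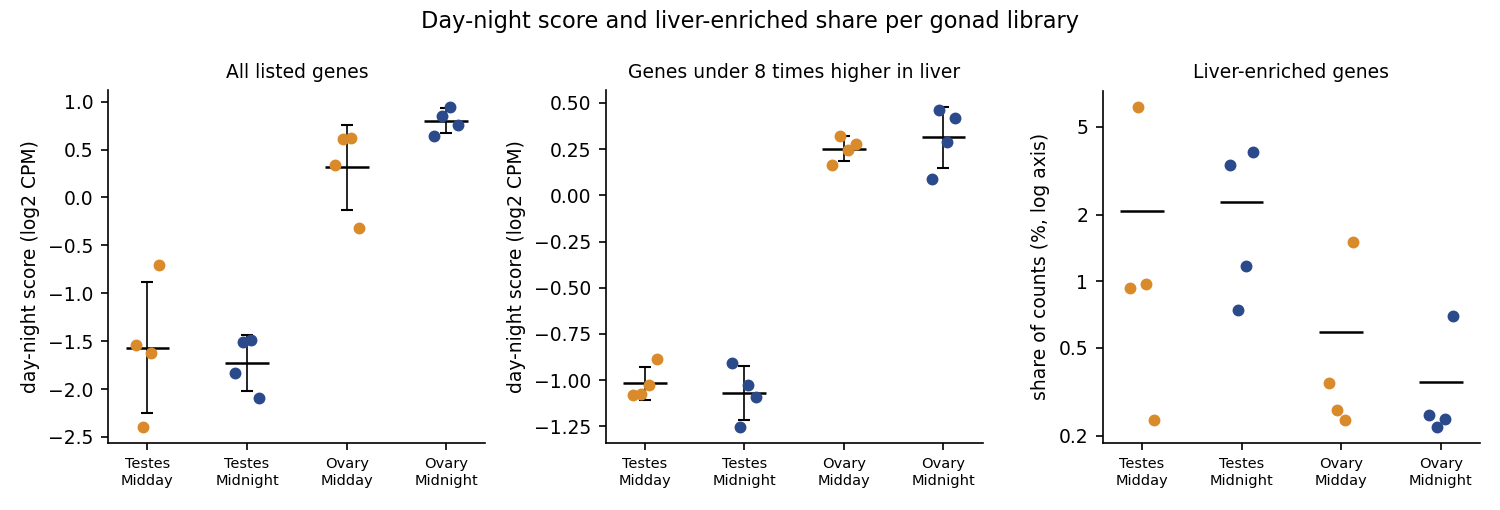
Day-night score per gonad library over all listed genes (left) and over genes less than 8 times higher in liver (middle), with means and SD over 4 animals, and percent of counts in liver-enriched genes (right, log axis, lines at means). The ovary groups are apart on the left, at 0.31 and 0.80, and overlap in the middle.

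ENSACAG00000002847 was the only night-high gene called in all 3 other organs. It lies on the minus strand of chromosome 6, bases 69322100 to 69337242, and was higher at Midnight in brain, eye and liver, with log2 changes of 1.81, 3.21 and 1.67 over both sexes (edgeR adjusted p = 4.65e-07, 1.15e-10 and 0.0418). In testes it was at 5.85, 3.53, 2.83 and 4.42 CPM at Midday and at 5.80, 5.06, 8.80 and 11.6 CPM at Midnight. In ovary it was at 10.0, 16.3, 14.0 and 14.3 CPM at Midday and at 15.7, 16.9, 18.3 and 17.8 CPM at Midnight. The groups overlapped in both organs, and the log2 changes were 0.91 ± 0.32 in testes and 0.33 ± 0.17 in ovary, neither called (edgeR adjusted p = 0.960 and 0.879). Its log2 change minus the mean of those in brain, eye and liver of the same sex was -2.02 in ovary (edgeR adjusted p = 0.00461). In testes that difference was -1.25 (edgeR adjusted p = 0.403). Since the gene was chosen for its change in brain, eye and liver, the direction of the gap follows from the choice.

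On the lower side 8 genes were called in all 3 other organs. In testes 7 of the 8 had a negative log2 change, against 49.4% of all genes. At an unadjusted p under 0.05, 1 was lower in testes, against 2.43%. In ovary 6 were negative and 3 lower at that level, against 46.9% and 2.75% of all genes. ENSACAG00000012009, at bases 1680007 to 1681252 of a scaffold, was the one whose smallest absolute log2 change over those organs was largest. Its log2 changes were -1.46 in brain, -2.46 in eye and -2.58 in liver over both sexes (edgeR adjusted p = 0.000272, 0.00147 and 1.36e-05). In testes it was at 1.91, 2.24, 2.99 and 1.62 CPM at Midday and at 1.78, 1.78, 2.22 and 2.22 CPM at Midnight, a log2 change of -0.13 ± 0.26 (edgeR adjusted p = 0.999). In ovary it was at 2.81, 4.17, 5.80 and 6.83 CPM at Midday and at 2.94, 1.90, 3.52 and 2.73 CPM at Midnight, a log2 change of -0.82 ± 0.32 (edgeR adjusted p = 0.823). The groups overlapped in both gonads.

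Tested gene by gene against the mean change of brain, eye and liver in the same sex, 7 of 19205 genes differed in testes and 69 of 18309 in ovary. These are 0.0364% and 0.377% of the genes tested, and in ovary 49 of the 69 had the more negative change. Among the 16 night-high genes, 1 was called in testes and 2 in ovary, all with the smaller change in the gonad. Among the 48 day-high genes, 1 was called in testes and 5 in ovary, all with the smaller drop. Since the lists were chosen for their change in those organs, the direction follows from the choice. Both counts moved with single animals. Without Testes Midday 2 the testes count was 103, and the ovary count was 36 without Ovary Midday 4 and 140 without Ovary Midnight 2. The organs of a sex came from the same set of animals, but the fit had no term for the animal and took their libraries as independent.

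Genes enriched in testes had higher levels in Midnight than in Midday ovaries. With no filter on low counts, 172 of 1034 such genes were higher at Midnight in ovary at an unadjusted p under 0.05 and 6 lower, against 3.08% and 2.48% of all genes. With the filter, 703 were tested, 145 were higher and 3 lower against 3.16% and 2.75%, and the median log2 change was 0.36, though a gene can pass that filter through the Midnight libraries alone. Over the 703, the ovary libraries were at 1.23, 1.29, 1.25 and 1.32 log2 CPM at Midday and at 1.43, 2.04, 1.55 and 1.69 log2 CPM at Midnight, without overlap. Their level in ovary was low, at a median of 1.30% of that in testes at Midday and 1.51% at Midnight. Of the 234 genes of highest testes level 89 were higher, of the 234 in the middle 40, and of the 235 of lowest level 16. Their median ovary levels at Midday also fell in that order, at 3.96, 1.75 and 1.17 CPM. The part of the ovary level in these counts was not tested. As a share of ovary counts, all 1035 genes took 0.592% ± 0.017 at Midday and 0.667% ± 0.067 at Midnight (SD, n = 4 each), and these groups overlapped.

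That pattern was largest in Ovary Midnight 2, and without that library 68 of 716 genes were higher and 6 lower, against 3.31% and 3.22% of all genes in that fit. Without each of the other libraries 97 to 163 were higher. The lowest counts were 97 of 741 without Ovary Midday 1 and 97 of 744 without Ovary Midday 2, against 3.50% and 2.03% of all genes there. In female brain, 7 of 498 testes-enriched genes were higher and 14 lower at that level, against 2.97% and 3.21% of all genes. In female eye 17 of 413 were higher and 6 lower, against 2.53% and 3.86%, and in female liver 18 of 296 were higher and 11 lower, against 6.04% and 5.93%. In males the lower counts were the larger, with 153 of 517 lower and 13 higher in eye against 9.59% and 7.78%, 73 of 593 lower and 16 higher in brain against 6.71% and 6.18%, and 33 of 482 lower and 19 higher in liver against 6.53% and 5.37%. In testes itself, 13 of 1028 were higher and 31 lower, against 2.63% and 2.43% of all testes genes. Of 303 ovary-enriched genes tested in testes, 20 were higher and 7 lower against the same shares, with a median log2 change of 0.15. These too passed a filter that a gene can pass through the Midnight libraries alone. With no filter on low counts, 20 of 397 were higher and 8 lower, against 2.14% and 2.12% of all genes.

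**Figure D5:**
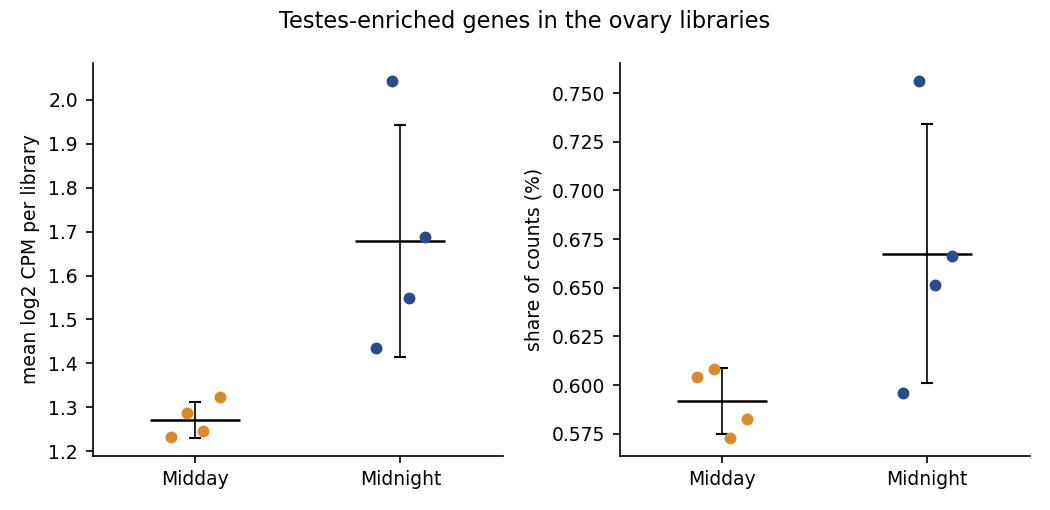
Testes-enriched genes in the 8 ovary libraries, as mean log2 CPM over the 703 genes tested (left) and as percent of counts over all 1035 (right), with means and SD over 4 animals. The Midnight libraries are all above the Midday ones on the left, with Ovary Midnight 2 the highest at 2.04, and overlap with them on the right. The genes on the left passed a filter on low counts that a gene can pass through the Midnight libraries alone.

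Genes of the mitochondrial genome, which encode parts of the respiratory chain and the RNAs to translate them, took a share of counts that overlapped between the times. The share was 0.365% ± 0.117 at Midday and 0.511% ± 0.121 at Midnight in testes (SD, n = 4 each; two-sided exact permutation test, p = 0.171, adjusted over both organs 0.343). In ovary it was 0.543% ± 0.110 and 0.619% ± 0.150 (exact p = 0.486). Of the 9 mitochondrial genes tested in testes, 8 had a positive log2 change, with a median of 0.39, and 2 were higher at an unadjusted p under 0.05 against 2.63% of all genes. Of the 10 tested in ovary, 6 had a positive log2 change, with a median of 0.11, and 0 were higher at that level against 3.16%. Skin-enriched genes took 0.103% ± 0.009 of counts in Midday ovaries and 0.075% ± 0.007 in Midnight ovaries, without overlap, and 0.077% ± 0.017 and 0.057% ± 0.008 in testes, where the groups overlapped. The skin-enriched share was not tested. It was 1 of several shares looked at, and those of brain-, eye- and liver-enriched genes overlapped between the times in both gonads.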

How the data were processed

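Counts per gene were deposited by the authors as raw counts for 26479 Ensembl gene IDs in 142 libraries. The tools named in the submitters' processing notes are STAR 2.7.11a, Subread, featureCounts, FastQC and Trimmomatic; their roles are not stated there. Genome build, annotation release and strand setting are likewise not given in the sources used, so overlapping and closely related genes may share reads. In a RefSeq table of 27148 genes (assembly rAnoCar3.1), 0 of these IDs were found. The planned clock genes and cell type markers could therefore not be used, and no sequence is shown.

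Each organ's 4 Midnight and 4 Midday libraries were fitted alone with edgeR 4.0.16 in R 4.3.3 (TMM, filterByExpr, robust quasi-likelihood test, Benjamini-Hochberg adjustment over the genes tested, calls at an adjusted p under 0.05). Standard errors are the absolute log2 change over the root of F. The CPM printed for single genes, and the overlap of groups, used library sizes scaled by TMM over the genes that passed the filter. CPM for the enriched lists, the liver levels, the 1 CPM floor and ovary levels as a percent of testes are counts over total counts. Log2 CPM used TMM and a prior count of 2. Permutation tests over libraries were exact. The ALAN libraries were left out of the fits because their counting class differs in testes and mostly in ovary, and served for the lists of enriched genes. The scripts were tested on simulated data.

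IDs were named by rule: in each direction the ID called in the most of brain, eye and liver (ties by the largest of its smallest absolute log2 change there), and the ID with the smallest value of the larger of both gonads' unadjusted p-values. The ovary calls were named besides. Members, lists and rules were chosen with earlier results of these data known, and the brain list, the splits by liver level, the liver-enriched covariate and the testes-enriched list in ovary were chosen after seeing the values. Alternatives were RLE size factors, no filter, DESeq2 1.42.0, a replicate block, the ALAN libraries in the fit, and each library left out.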

Additional observations from a re-analysis of the deposited data

Results flagged for a closer look

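In 3 of 64 groups of 4 libraries examined, 1 library stood far from the other 3, and chance alone flags about 1 in 20 groups. All 3 concerned the share of counts in liver-enriched genes. Testes Midday 2 held 6.18%, against 0.968% in the next library of its group. Ovary Midday 4 held 1.51%, against 0.347% in the next. Ovary Midnight 4 held 0.694%, against 0.248% in the next.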

How the results depend on the processing

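Read counts limit the precision of genes at low level, and 4 animals a group limit all tests. With no filter on low counts edgeR called 2 genes in testes, 7 in male liver and 32 in female liver. DESeq2 called 46 genes in testes, 116 in ovary, 467 in male brain, 860 in male eye, 245 in male liver, 92 in female brain, 116 in female eye, 351 in female liver and 54 for testes against ovary. With the ALAN libraries in the fit, ovary had 0 calls (593 genes at an unadjusted p under 0.05). Each animal had 1 treatment, so replicate numbers pair no Midday library with a Midnight one. Same-numbered Midday and Midnight gonad libraries correlated at 0.007 to 0.267 in their deviations. With the replicate number as a block, calls were 0 in testes, 5 in ovary, 81 in male brain, 2 in male eye, 7 in female brain, 6 in female eye, 7 in female liver and 5 for testes against ovary. Of the 5 in ovary 3 were among the 4 unblocked calls, without ENSACAG00000012339 (adjusted p = 0.190) and with ENSACAG00000029684 (-1.70, adjusted p = 0.00895). Against brain and liver alone, the testes contrast gave 4 calls. The Midnight-minus-Midday difference of the score was 0.97 in testes over genes called in 3 organs, and 0.0615 in ovary without genes of high liver level. In female liver, separation by 1 minus Spearman's correlation was 0.0081 (exact p = 0.0286).

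With single libraries left out, calls ran from 0 to 3 in testes, 1 to 3 in ovary, 53 to 156 in male brain, 10 to 77 in male eye, 0 to 5 in male liver, 8 to 24 in female brain, 11 to 19 in female eye, 3 to 27 in female liver and 0 to 2 for testes against ovary. They ran from 3 to 103 for testes and 36 to 140 for ovary against the other organs. ENSACAG00000007370 was called in ovary in all 8 omissions, while the other ovary calls were each lost in 6 or more of the 8. The score difference ran from -0.44 to 0.12 in testes and 0.28 to 0.59 in ovary. Separations ran from -0.0306 to 0.0696 in testes, 0.0047 to 0.0575 in ovary, 0.0312 to 0.0485 in male brain, 0.0416 to 0.123 in male eye, -0.0092 to 0.0945 in male liver, -0.0403 to 0.0590 in female brain, -0.0277 to 0.0600 in female eye and 0.0474 to 0.110 in female liver. The mitochondrial share difference ran from 0.0866 to 0.20 in testes and 0.0075 to 0.119 in ovary, and that of own enriched genes from -1.29 to 0.203 and -0.125 to 0.132. The cause of these moves was not tested.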
